A study of Mus musculus with 2 samples.

Results

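Fetub, Ahsg and Kng1 are neighbouring mouse genes that encode the secreted proteins fetuin-B, fetuin-A and kininogen-1. Every probe that the array annotation assigned to these symbols was taken, which gave 6 probes of 25697, or 3 genes of 17872. The genes were chosen by their measured signals in these same pools, in which Fetub and Ahsg were known to stand high, so their signals and ratios are given as a description, with no test. Epidermal RNA came from C57BL6 pups at postnatal day 5, from mice labelled as lacking the vitamin D receptor gene Vdr (KO) and from their littermate controls (CON). KO mice carried floxed Vdr alleles and a Cre under control of the keratin 14 promoter, which works in basal keratinocytes. The deletion passes to the cells that descend from these, and Vdr stays in other cells of the tissue. CON mice carried the same floxed alleles, with no Cre in their labelled genotype. Each genotype was 1 pool of RNA from 3 mice on 1 bead array, without replicates, and this number of arrays limits the precision.

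Fetuins and kininogens belong to the cystatin superfamily, whose members share folded domains by descent, and many of them block proteases. Fetuin-A and the kininogens are best known as plasma proteins made by hepatocytes. Fetuin-A binds calcium phosphate and keeps mineral from precipitating, fetuin-B inhibits astacin metalloproteases such as ovastacin of the mouse egg, and kininogen-1 is the precursor from which kallikreins release bradykinin.

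By its title the series asks how calcium sensing and vitamin D receptors work together in maturing epidermis. The arrays detected similar shares of probes, and the deleted gene gave no check of the labels. Of all probes, 44.4% were detected in the pool labelled KO and 44.8% in the CON pool. Detected means here a detection p-value under 0.01, the share of 798 negative control probes of the same array that read as bright or brighter. The number 798 was inferred from the steps between the detection p-values, and the counts of controls below rest on it. The brightest of 3 Vdr probes had a raw signal of 2442.1 in the pool labelled KO and of 1913 in the CON pool. The next probe had 1559.6 in the pool labelled KO and 1203.7 in CON. The dimmest, also detected in both pools, went the other way, with 189 in the pool labelled KO and 193 in CON. Neither the deleted exons nor the places of the probes in Vdr are stated in the labels or files, and probes that lie elsewhere in the gene cannot test the deletion. Every direction below therefore rests on the label of the pool. Keratinocyte transcripts were bright in both, with raw signals of 33165.4 in the pool labelled KO and 30158 in the CON pool for the basal keratin gene Krt14, and of 33073.8 in the pool labelled KO and 30955.8 in the CON pool for the suprabasal keratin gene Krt10. All 9 measured keratinocyte markers were detected in both pools.

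Fetub and Ahsg lie next to each other on mouse chromosome 16, and the stretches before their gene starts are shown because these neighbours were both detected in the pool labelled KO and in neither case in the CON pool. Both are the 250 bases upstream of the RefSeq gene start on the plus strand of build GRCm38.p6, chr16:22918132-22918381 for Fetub and chr16:22891765-22892014 for Ahsg. RefSeq lists a further start for Fetub that is not shown. Capitals mark the longest run of letters that both stretches share in the same orientation.
Fetub: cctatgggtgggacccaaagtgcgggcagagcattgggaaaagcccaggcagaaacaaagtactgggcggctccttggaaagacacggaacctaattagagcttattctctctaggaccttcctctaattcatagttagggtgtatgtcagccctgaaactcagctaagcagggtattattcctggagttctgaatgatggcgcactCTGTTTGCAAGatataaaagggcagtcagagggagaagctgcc
Ahsg: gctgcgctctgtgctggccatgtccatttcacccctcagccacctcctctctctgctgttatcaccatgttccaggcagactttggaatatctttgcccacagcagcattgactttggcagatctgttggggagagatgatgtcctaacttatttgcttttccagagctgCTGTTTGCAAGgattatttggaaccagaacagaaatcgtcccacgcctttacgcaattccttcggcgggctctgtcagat

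The shared run, CTGTTTGCAAG, is 11 bases long. It begins 43 bases before the Fetub start and 80 bases before the Ahsg start. On either strand it was found in 13 of 32851 upstream stretches of the same length, or 0.0396%. Some run as long as this, of whatever letters, was shared with Fetub in the same orientation by 1.98% of the stretches of other genes. The longest runs that Fetub shared with Hrg and Kng2, the other cystatin genes of the locus with a listed promoter, were 7 bases each. Of 4 hexamers of the kind the vitamin D receptor binds, searched on both strands, none was in either stretch, while 38.6% of all stretches held at least 1. The hexamer AGGTCA was in 14.0% of all stretches and the hexamer AGTTCA in 11.8%. For the hexamer GGTTCA the share was 8.85%, and for the hexamer GGGTCA it was 11.6%. A TATA box, searched as TATAAA on both strands, stood 31 bases before the Fetub start, overlapped by no letter of the shared run, and was not in the Ahsg stretch. TATAAA was in 12.4% of all stretches. These matches describe letters in a window and say nothing about the binding of a factor.

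Fetub, the fetuin-B gene, was the brightest of the 3 genes in the pool labelled KO. Its only probe, ILMN_2761645, had a raw signal of 653.7 in the pool labelled KO and of 160.6 in the CON pool. No negative control reached the signal in the pool labelled KO, which was brighter than 82.4% of all probes on that array. In the CON pool 15 of the 798 controls were as bright, a detection p-value of 0.0188, so the probe lay just outside the detection limit there. The lowest raw signal of a detected probe on the CON array was 163.1, only slightly above that of Fetub.

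How large the Fetub difference is depends on how the background is handled. The normalized table of the authors keeps the background, and in it the signal was 645.4 in the pool labelled KO and 165 in the CON pool, a ratio of 3.91. This ratio was the third highest among the 25697 probes and the highest among the 14196 probes not detected in the CON pool. Above the mean background of its array the raw signal was 512 in the pool labelled KO and 22.7 in the CON pool. After background correction and quantile normalization the log2 signal was 9.02 in the pool labelled KO and 5.30 in CON, a log2 change of 3.72. Because Fetub was not detected in CON, only a lower bound holds, set against the lowest signal among detected CON probes. That bound was at least 12.4-fold higher on the corrected scale and at least 3.83-fold on the normalized scale.

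**Figure D1:**
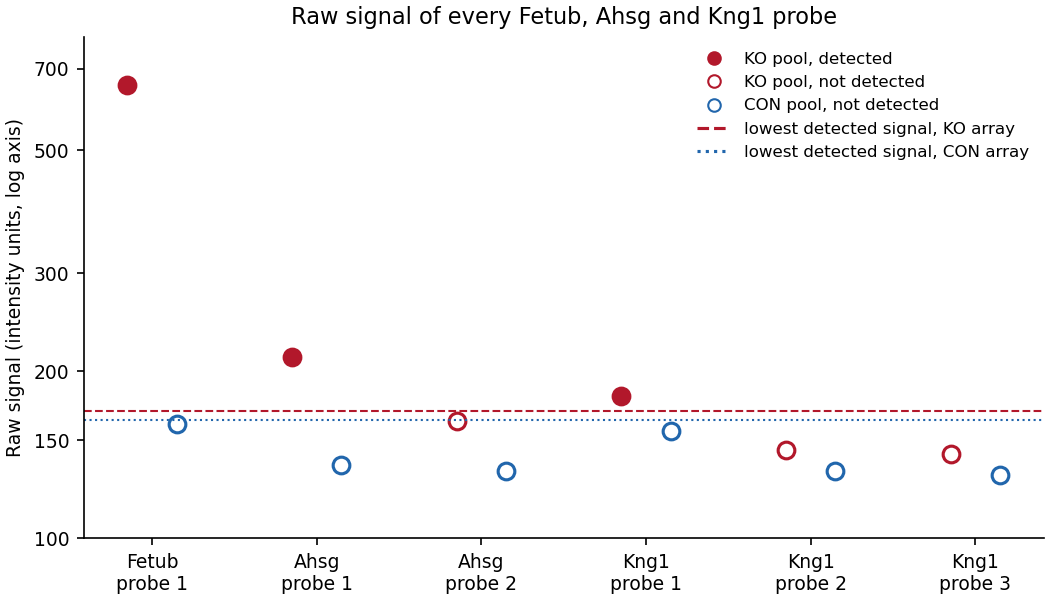
Raw signal (log axis) of each probe in the pool labelled KO (red) and the CON pool (blue), with filled points for detected and open points for undetected signals, and with the lowest detected signal of each array as a line. Fetub stands at 653.7 in the pool labelled KO, 3 of the 6 probes are filled there, and no probe is filled in the CON pool.

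Ahsg, the fetuin-A gene, was measured by a pair of probes, both designed on the same transcript, and both were brighter in the pool labelled KO. The first, ILMN_2764036, had a raw signal of 212.3 in the pool labelled KO and of 135.2 in the CON pool. No negative control was as bright in the pool labelled KO, whereas 459 of 798 were as bright in CON, where the probe was at background. In the normalized values the signals were 218.5 in the pool labelled KO and 133.5 in CON, a ratio of 1.64 that only 3 of the 14196 probes not detected in CON reached, this one included. The log2 change after background correction was 1.93, and the lower bound was at least 2.01-fold on the corrected scale and at least 1.30-fold on the normalized scale.

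The second Ahsg probe, ILMN_2993745, missed the detection limit in both pools. Its raw signal was 162.9 in the pool labelled KO and 132.3 in the CON pool, and of the 798 negative controls 26 were as bright in the pool labelled KO and 593 in CON. No fold of transcript is given for it, since neither signal counts as detected. As signals that still hold the background, its normalized values of 161.2 in the pool labelled KO and 130.4 in CON gave a ratio of 1.24, and 32 of the 14196 probes not detected in CON (0.225%) had a ratio as high.

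The signal of this second probe can be set beside those of other genes in the same position. Of 279 genes whose brightest probe was detected in the pool labelled KO but not in CON, 91 had a further probe. In 3 of these 91 genes (3.30%) the second probe was detected in the pool labelled KO, and in 47 it read higher there than in CON in the normalized values, with a median ratio of 1.01. The second Ahsg probe had the highest ratio of the 91. The second Kng1 probe ranked 22nd. These ranks are a description only, since Ahsg and Kng1 were chosen by these same signals. The first probes of the 279 genes had a median ratio of 1.12, against 1.64 for Ahsg, so the genes were not matched to it in size. Fetub, with a single probe, could not be compared in this way.

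Kng1, the kininogen-1 gene, was near background in both pools. Its brightest probe, ILMN_2788223, had a raw signal of 180.1 in the pool labelled KO and of 155.7 in the CON pool. Of the 798 negative controls 3 were as bright in the pool labelled KO and 26 in CON, so the probe was detected in the pool labelled KO alone. The normalized ratio was 1.15, and 297 of the 14196 probes not detected in CON (2.09%) had a ratio as high. After background correction the log2 change was 0.63, with a lower bound of 1.28-fold on the corrected scale and of 1.08-fold on the normalized scale.

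The other probes of Kng1 did not stand above the negative controls. ILMN_2788221 had a raw signal of 144.1 in the pool labelled KO and of 132.2 in CON, and ILMN_1225218 of 141.7 in the pool labelled KO and of 130.2 in CON. Of the 798 controls, 267 were as bright as ILMN_2788221 in the pool labelled KO and 596 in CON. For ILMN_1225218 these counts were 358 in the pool labelled KO and 668 in CON. Both normalized ratios were 1.06, which 17.4% and 19.0% of the probes not detected in CON reached. Detection of Kng1 in the pool labelled KO therefore rested on 1 probe of 3.

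All 6 probes were brighter in the pool labelled KO in the raw and in the normalized values. Over the whole array 66.0% of probes were brighter there in the raw values, where the background itself was higher (a mean of 141.926 in the pool labelled KO and of 137.936 in CON), and 49.3% in the normalized values. By detection, 3 of the 6 probes were called in the pool labelled KO and 0 in CON, beside 2.81% of the probes not detected in CON that were detected in the pool labelled KO. By size, the measured ratio passed 1.5-fold for all 3 genes after background correction, beside 3.10% of 8865 detected genes, and for Fetub and Ahsg in the normalized values, beside 0.541%. None of the 3 was detected in CON, and by the lower bound 1.5-fold was reached by Fetub and Ahsg on the corrected scale, beside 2.27%, and by Fetub alone on the normalized scale, beside 0.519%. The choice of these genes used this contrast, so nothing is read from their counts. Over all detected genes 275 were 1.5-fold higher and 202 lower after background correction, and 48 and 15 in the normalized values.

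**Figure D2:**
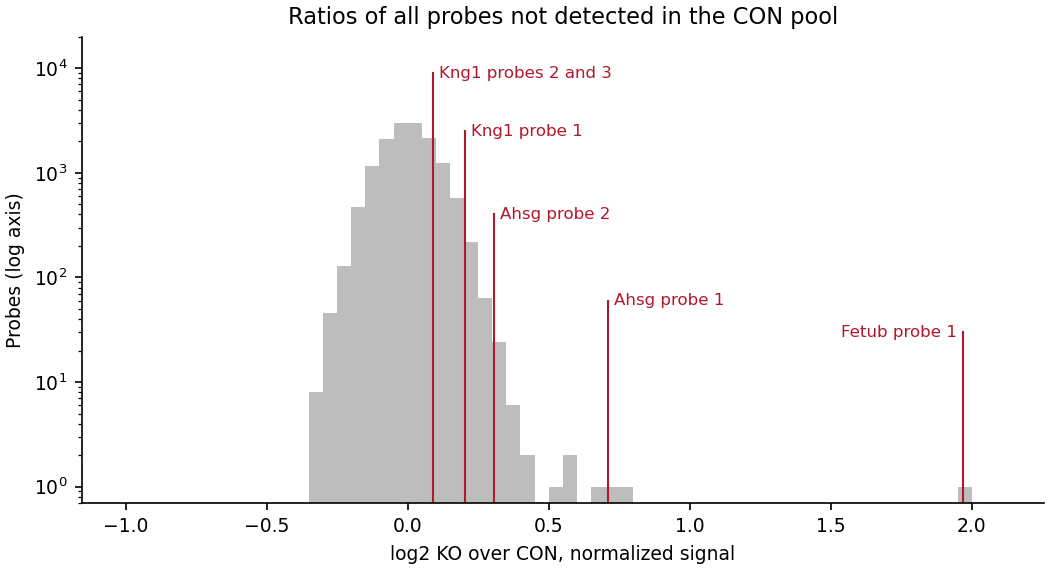
Histogram of the log2 KO over CON ratio of normalized signals for the 14196 probes not detected in the CON pool (log count axis), with a red line at each Fetub, Ahsg and Kng1 probe. Fetub lies apart from all other probes, Ahsg probe 1 lies beyond the main body, Ahsg probe 2 lies at its upper edge, and the Kng1 probes lie within it.

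Along the chromosome the ratios were highest at the adjacent genes Fetub and Ahsg. RefSeq places Ahsg, Fetub, Hrg, Kng2 and Kng1 in this order with no other protein-coding gene between them. Hrg, which encodes the plasma protein histidine-rich glycoprotein and is the next gene after Fetub, was not detected in either pool. Its brighter probe had a raw signal of 146.9 in the pool labelled KO and of 142.8 in CON, and the other 146.3 in the pool labelled KO and 142 in CON, with normalized ratios of 0.999 and 1.0. Kng2, a further kininogen gene, was not detected either. Its brighter probe had a raw signal of 167.1 in the pool labelled KO and of 153.6 in CON, a ratio of 1.07 in the normalized values, and 10 of 798 controls were as bright in the pool labelled KO, just outside the limit. Kng1 and Kng2 are close relatives, and how far their probes pick up each other's transcripts was not measured.

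The genes that flank the locus had ratios near 1. On the Ahsg side, the diacylglycerol kinase gene Dgkg and the lens crystallin gene Crygs were not detected, with normalized ratios of 0.897 and 0.949, and Dnajb11 and Tbccd1 were not analysed here. On the Kng1 side, the translation factor gene Eif4a2 had a raw signal of 7392 in the pool labelled KO and of 6551.8 in CON, with a normalized ratio of 1.09. The replication factor gene Rfc4 had a ratio of 1.09 and the sialyltransferase gene St6gal1 of 1.19, and both were detected in both pools. Adipoq, the adiponectin gene of fat cells, was not detected and had a ratio of 0.896. None of the detected flanking genes reached 1.5-fold.

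**Figure D3:**
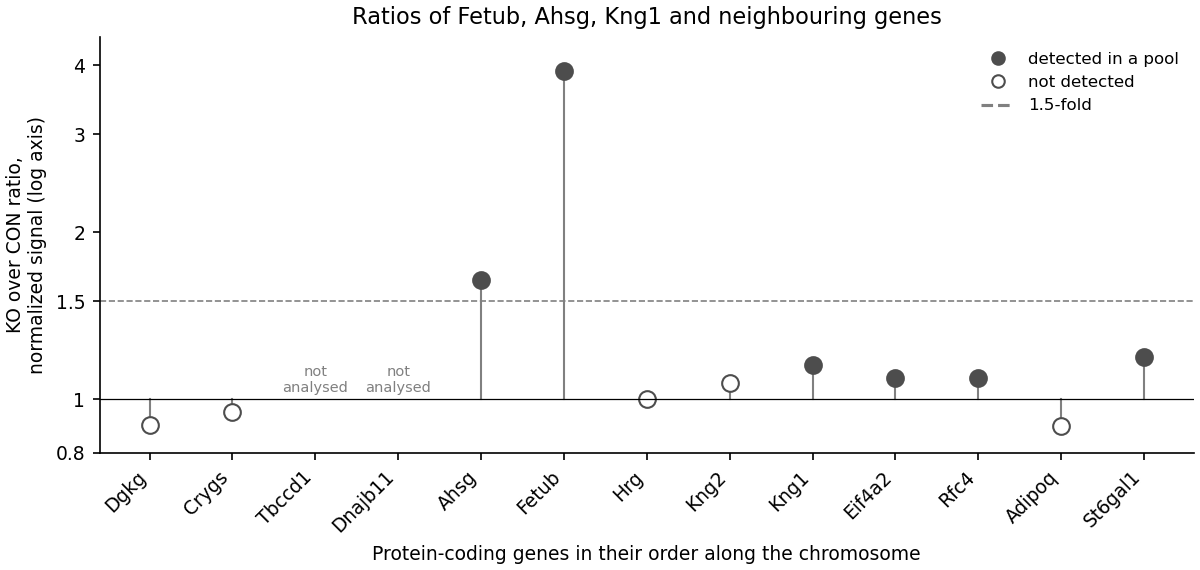
KO over CON ratio of normalized signals (log axis) for the brightest probe of each protein-coding gene in chromosomal order, filled where the gene was detected in a pool. Fetub at 3.91 and Ahsg at 1.64 stand above the 1.5-fold line and every other gene shown lies between 0.896 and 1.19.

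Other genes with a pattern like that of Fetub were few. Likeness was taken as absence of detection in CON, detection in the pool labelled KO and the largest ratio of normalized signals, over the 2 pools. Of the 279 genes of this kind, whose median ratio was 1.12, only 3 had a ratio of 1.5 or more, and Fetub was the first, Ahsg the third and Kng1 the 73rd. The other gene of the 3 was the secretoglobin gene Scgb1b27, with raw signals of 241.3 in the pool labelled KO and 145.1 in CON and a ratio of 1.73. It was followed after Ahsg by the neural adhesion gene Cntn1 (1.48), Fcmr, the gene of the receptor for the constant part of immunoglobulin M (1.46), Gm5922 (1.42), the skeletal myosin gene Myh8 (1.35), Gm1943 (1.34) and the cyclin gene Ccne1 (1.29). The step from Fetub to the next gene was larger than that between any other neighbours in this order. These places are a description only, since Fetub, Ahsg and Kng1 were chosen by these same signals. The 279 genes entered by their detection in the pool labelled KO alone, and 312 genes were detected in CON alone. The muscle gene Myl1, with a ratio of 1.64, was left out because it was detected in CON.

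Transcripts of plasma proteins, which hepatocytes make together with fetuin-A and kininogen, were at background in both pools for the most part. Of 33 measured genes of such proteins and of hepatocyte identity, 4 were detected in the pool labelled KO and 7 in CON. Over the whole array 8865 of 17872 genes were detected in at least 1 pool. After background correction the measured ratio of 0 of the 7 detected genes was 1.5-fold higher and that of 1, Hp, was lower, beside 3.10% and 2.28% of all detected genes, and their median log2 change was -0.16, against 0.002 over all detected genes. The albumin gene Alb had a raw signal of 136.4 in the pool labelled KO and of 132.4 in CON, and the alpha-fetoprotein gene Afp of 143.2 in the pool labelled KO and of 135.2 in CON, both undetected. The transferrin gene Trf was detected, with 219.5 in the pool labelled KO and 194.1 in CON, a log2 change of 0.31. The haptoglobin gene Hp, detected in CON alone, had a raw signal of 155.5 in the pool labelled KO and of 167.9 in CON, a log2 change of -0.62, but by its bound lower by at least 1.10-fold only. The hepatocyte transcription factor gene Hnf4a, also detected in CON alone, had 156.5 in the pool labelled KO and 166.6 in CON. The summed raw signal of the 33 genes, which holds the background of every probe, was 13313.5 in the pool labelled KO and 12635.8 in CON. Most of it came from the acute-phase gene Orm1, with 8457.2 in the pool labelled KO and 7951.5 in CON.

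Smaller cystatins of the same superfamily were also higher in part. Of 17 measured stefins and cystatins 9 were detected, all of them in both pools, beside 8865 of 17872 genes detected in at least 1 pool. Of the 9 genes 3 were 1.5-fold higher and 0 lower, beside 3.10% and 2.28% of all detected genes. Their median log2 change was 0.33. Stfa2, a stefin A gene whose product blocks cysteine proteases inside cells, had a raw signal of 2273.9 in the pool labelled KO and of 957.2 in CON, a log2 change of 1.33. Its relatives Cstdc4 and Csta3 had log2 changes of 1.2 and 0.91. In the normalized values 3 genes again passed, beside 0.541% of all detected genes. The ratios were 2.23 for Stfa2, 1.59 for Cstdc4 and 1.5 for Stfa3, while Csta3 at 1.37 did not pass. Stfa3 lay at the limit, and after background correction it was just under it, at 1.49-fold. Stefin A genes are near-identical copies whose probes may read each other's transcripts, which makes the single values uncertain. Cystatin B and cystatin C, encoded by Cstb and Cst3 and made by most cells, had log2 changes of 0.00 and 0.07.

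Proteases in the classes that these inhibitors act on, or related to them, came next. Of 12 detected cathepsins, calpains and related enzymes 0 were 1.5-fold higher and 1 was lower, beside 3.10% and 2.28% of all detected genes, with a median log2 change of -0.12. Counts this small are near those shares. The lower gene was Ctsa, which encodes cathepsin A, a lysosomal serine carboxypeptidase, with a raw signal of 663.3 in the pool labelled KO and of 1073.5 in CON, a log2 change of -0.87 and a normalized ratio of 0.617. The calpain gene Capn2 had a log2 change of 0.48 and the cathepsin B gene Ctsb of 0.27. Among 6 measured genes of astacin metalloproteases, the class that includes ovastacin, 2 were detected, beside 8865 of 17872 genes over the whole array. Of these astacin genes 0 were 1.5-fold higher or lower, beside the same 3.10% and 2.28%, so few genes could have been called. Bmp1, the procollagen C-proteinase gene, had a raw signal of 1451.2 in the pool labelled KO and of 1223 in CON, a log2 change of 0.22. The meprin beta gene Mep1b was detected in the pool labelled KO alone, with 173 there and 154.1 in CON and a lower bound of 1.11-fold. Astl, the ovastacin gene, was at background, with 135.4 in the pool labelled KO and 136.5 in CON.

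Most genes of the enzymes and receptors that make and sense kinins were not detected in either pool. Of 14 measured genes 3 were detected, beside 8865 of 17872 genes over the whole array. Of the 3 detected genes 0 were 1.5-fold higher or lower, beside 3.10% and 2.28% of all detected genes, with a median log2 change of 0.08. The bradykinin receptor genes Bdkrb2 and Bdkrb1 had raw signals of 142.3 and 140.6 in the pool labelled KO and of 125.9 and 142.6 in CON. The plasma kallikrein gene Klkb1 read 129.1 in the pool labelled KO and 129.7 in CON. The detected genes encode peptidases that can break down kinins and other peptides. Prcp had a log2 change of 0.38, Xpnpep1 of -0.33 and Xpnpep2 of 0.08.

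Genes of mineral balance, the process in which fetuin-A takes part, held 1 gene past the rule. Of 9 detected genes 1 was 1.5-fold higher and 0 lower, beside 3.10% and 2.28% of all detected genes. The median log2 change was -0.18, against 0.002 over all detected genes. Log2 changes were negative for 8 genes and positive for 1, but some of the 8 were near 0, at -0.004 for Mgp, -0.024 for Slc20a2 and -0.046 for Ank. Nt5e, the gene of the ecto-enzyme CD73 that makes adenosine, had a raw signal of 971.5 in the pool labelled KO and of 642.1 in CON, a log2 change of 0.66 and a normalized ratio of 1.44, under the rule. The osteocalcin gene Bglap had a log2 change of -0.53. Phospho1, a phosphatase gene of mineralizing cells, was detected in CON alone, with a log2 change of -0.49, lower by at least 1.27-fold.

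**Figure D4:**
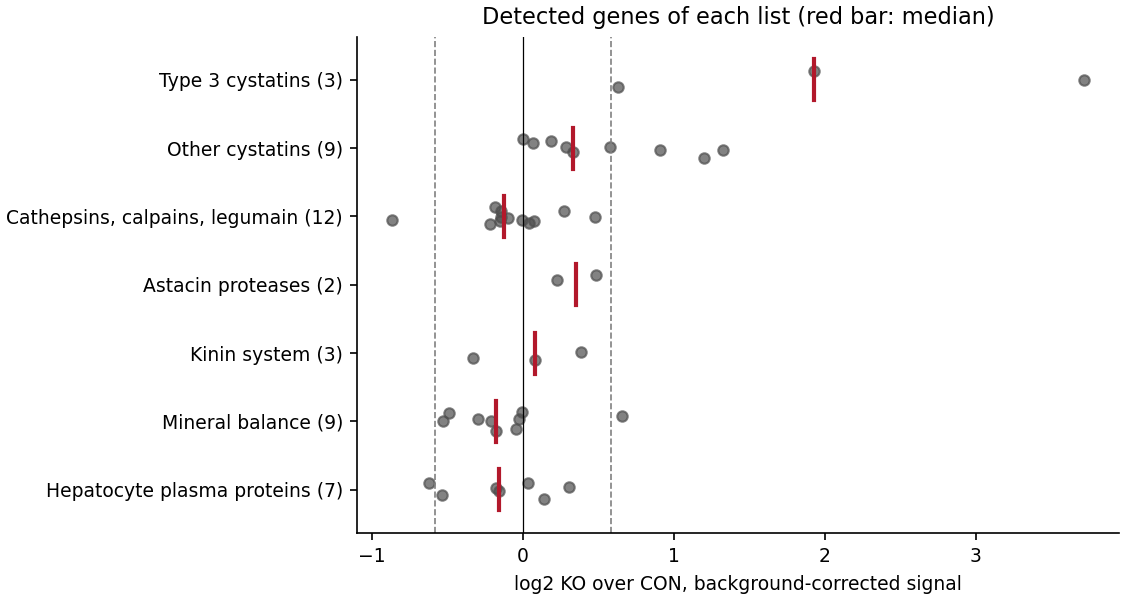
Log2 KO over CON of background-corrected signal for each detected gene (grey points) of 7 gene lists, with the median as a red bar, the 1.5-fold limits as dashed lines and the number of detected genes in brackets. Detected type 3 cystatins, that is Fetub, Ahsg and Kng1, lie to the right of the upper limit by their measured ratios, which are not lower bounds, and the hepatocyte plasma proteins lie around and below 0 with a median of -0.16.

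Markers of other cells that a split of skin can carry along also differed between the pools, and their part in the Fetub and Ahsg signals was not tested. The counts of detected markers below stand beside 8865 of 17872 genes detected in at least 1 pool over the whole array. Of 8 measured skeletal muscle genes 4 were detected in the pool labelled KO and 2 in CON. The measured ratio of 3 muscle genes was 1.5-fold higher after background correction, beside 3.10% of all detected genes. Of these Myl1 was detected in both pools, while Myh8 and Acta1 were not detected in CON and had lower bounds of 1.53-fold and 1.04-fold. Mylpf, the brightest muscle gene and also detected in both pools, had 398.3 in the pool labelled KO and 381.4 in CON, a log2 change of 0.02. The summed raw signal of the muscle genes was 1633.4 in the pool labelled KO and 1423.2 in CON. This sum and those below hold the background of every probe, undetected ones included. The mean background was 141.926 per probe in the pool labelled KO and 137.936 in CON, so the sums do not measure amounts of a cell type. The myosin light chain gene Myl1 had a raw signal of 278.6 in the pool labelled KO and of 169.2 in CON. It was the only muscle gene past the rule in the normalized values, at a ratio of 1.64, beside 0.541% of all detected genes. The defining muscle creatine kinase gene Ckm was not detected, with 132.1 in the pool labelled KO and 139.4 in CON. Of 7 measured fibroblast genes 3 were detected, all with negative log2 changes and a median of -0.47. The type I collagen gene Col1a1, detected in both pools, had 173.1 in the pool labelled KO and 202.3 in CON, a log2 change of -0.83. It was 1.5-fold lower after background correction, beside 2.28% of all detected genes. In the normalized values its ratio of 0.804 did not pass. The signal of 173.1 was only slightly above 169.2, the lowest of a detected probe on that array. The summed raw signal of fibroblast genes was 1682.1 in the pool labelled KO and 1810 in CON. Detected in both pools were 2 of 6 measured red cell genes, 4 of 5 melanocyte genes and 4 of 7 immune cell genes. The alpha-globin gene Hba-a1 had 546.9 in the pool labelled KO and 783.1 in CON, a log2 change of -0.69. It was 1.5-fold lower after background correction, beside the same 2.28%, but not in the normalized values, at a ratio of 0.688. The red cell anion exchanger gene Slc4a1 had a log2 change of 0.50. Red cell genes summed to 1647.5 in the pool labelled KO and 1756.8 in CON, melanocyte genes to 3224.3 in the pool labelled KO and 3439.8 in CON, and immune cell genes to 11668.4 in the pool labelled KO and 11151 in CON. In pooled tissue RNA, fewer cells of a type and less RNA per cell cannot be told apart.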

How the data were processed

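Each sample was 1 pool of epidermal RNA from 3 mice, grouped by the genotype in the labels. The authors deposited raw bead intensity per probe on a linear scale with a detection p-value, per the file headers, made with GenomeStudio 2011.1, per the submitters' processing notes. They also deposited normalized intensity, whose sorted values agree within 0.3 between arrays. No source used here names the method. The series matrix held the same values.

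Raw intensity and detection p-values were put through neqc of limma 3.58.1 in R 4.3.3 (normal-exponential background correction, offset 16, quantile normalization, log2). Dim signals depend strongly on this step. Later steps used Python 3.11.15, numpy 2.4.6, pandas 2.3.3 and matplotlib 3.10.9. Probes were named through the RefSeq table of GRCm38.p6, which matched 25375. A gene was represented by its brightest probe by mean log2 signal. Detection was p under 0.01 in at least 1 pool and a change was called at 1.5-fold. An undetected signal was replaced by the higher of itself and the lowest detected signal of its array to give a lower bound. With 1 pool per genotype no test, SD or standard error was possible, and nothing measures the spread between mice. The background correction, normalization and 1.5-fold call were tested on simulated arrays, for genes well above background. Signals as dim as those of Ahsg and Kng1, and the lower bounds, were not covered.

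The genes and lists were chosen with earlier results of these data known. Named genes were all probes of Fetub, Ahsg and Kng1, Hrg, Kng2, the 4 flanking genes on each side, up to 3 detected genes with the largest absolute log2 change per list, and the 8 genes most like Fetub. Alb, Afp, Orm1, Astl, Cstb, Cst3, Stfa3, Krt14, Krt10, Ckm, Mylpf, the kinin receptor genes and Klkb1 were added after their values were seen. Alternatives were the normalized intensity, no background correction, centring on the 75th percentile, offset 50, averaged probes, a detection p of 0.05 and a 2-fold rule.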

Additional observations from a re-analysis of the deposited data

How the results depend on the processing

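The direction of Fetub, Ahsg and Kng1, higher in the pool labelled KO, held under every alternative run, while the sizes depended on the background. Each alternative reprocessed the same arrays on which the genes were chosen, so the direction was not tested by them. Against a log2 change of 3.72 for Fetub, the normalized table gave 1.97, no background correction 1.98 and an offset of 50 gave 2.91. Against 1.93 for Ahsg these were 0.71, 0.60 and 1.08. Against 0.63 for Kng1 they were 0.20, 0.17 and 0.35, and the mean of its probes gave 0.31, all under 1.5-fold. Of 477 detected genes past 1.5-fold (57.7% higher), 63 were counted in the normalized table (76.2% higher), 73 without background correction (68.5%), 159 with an offset of 50 (64.2%) and 52 at 2-fold. Among the listed genes, which include Fetub, Ahsg and Kng1, 14 passed (71.4% higher). The normalized table gave 7 (85.7%), no background correction 6 (83.3%) and the 2-fold rule 6. Fetub, Ahsg and Kng1 were chosen by this contrast and add to the higher side, so nothing is read from these shares. Background correction subtracts most of a dim signal, and the offset adds a constant back, so both set these sizes by construction. Centring on the 75th percentile and a detection p of 0.05 moved no count by over 1.5 times. At that looser limit Fetub, at 0.0188, and the brightest Kng1 probe, at 0.0326, count as detected in CON, and the second Ahsg probe, at 0.0326, as detected in the pool labelled KO. No paired analysis was possible because each genotype was 1 pool, and no replicate could be left out. The depth of these arrays is limited by signal over background, from which Kng1 was not clearly separated.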
